A study of Mus musculus with 123 samples.

Results

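Liver gene expression of CC008/GeniUnc, 1 of 22 Collaborative Cross (CC) mouse strains, was compared with that of the other 21 strains. The members were chosen by the strain label alone, and 5 of the 123 mice carried it. The CC008/GeniUnc group held 3 mice fed the high-protein (HP) diet, called HP 1, HP 2 and HP 3, and 2 mice fed the high-fat high-sucrose (HS) diet, called HS 1 and HS 2. The comparison group held the mice of the other 21 strains, 60 on HP and 57 on HS. All were labelled female, were 6 to 9 weeks old when obtained, ate the synthetic AIN-76A diet for 2 weeks and then HP or HS for 8 weeks, and had fasted for 4 h when the liver was taken. The labels name no engineered allele and no agent other than the diets. A second comparison set HP against HS within CC008/GeniUnc, beside the same difference in the other strains.

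CC strains are recombinant inbred lines, each a fixed mosaic of the genomes of several founder strains, so that mice of 1 strain are close to genetic copies of each other. Every large block of a CC genome descends from 1 founder, and genes within a block share that descent. The liver makes most plasma proteins, clears drugs and hormones through cytochrome P450 enzymes and conjugating enzymes, and handles dietary protein, sugar and fat, and all of these activities vary with genotype and diet.

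The values were robust multi-array average (RMA) intensities from Affymetrix Mouse Gene ST arrays on the log2 scale, where a difference of 1 is a doubling. The array medians of all mice lay between 2.97 and 3.16. All mice but 1 resembled their own strain best, and that mouse, labelled CC059/TauUnc, was left out of the fits. One CC071/TauUnc mouse labelled female had a *Xist* intensity of 2.72 against 9.16 or more in every other mouse, and without it 1415 genes were called in the strain comparison in place of 1397. The median standard deviation (SD) between mice of the same strain and diet was 0.238 over genes. The probes were designed on the reference genome, so a change in RNA level and a sequence difference under a probe cannot be told apart, and with bulk liver the number of cells of a type and the RNA per cell cannot be told apart either.

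The 5 CC008/GeniUnc livers resembled each other more than any other strain. After centring each gene, they correlated with the rest of their own strain at 0.436 to 0.509 and with the nearest other strain at 0.0532 to 0.0772, and no mouse of another strain was closest to CC008/GeniUnc. Within the strain the mice fell unevenly. HP 2 and HP 3 correlated with each other at 0.975, whereas HP 1 correlated at 0.973 with HS 1 and 0.978 with HS 2, but at 0.946 with HP 2 and 0.963 with HP 3. HP 2 was the lowest or highest of all mice in 923 genes and HP 3 in 455, compared with between 87 and 137 in HP 1, HS 1 and HS 2. Of all mice, CC024/GeniUnc HS 2 held the most such genes, 1622. By the pair correlations and these counts, HP 2 and HP 3 stood apart within their strain. On the centred values, however, HP 1 correlated least with its own strain, at 0.436. HP 2 was at 0.467 and HP 3 at 0.492.

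The first comparison asked which genes differed in CC008/GeniUnc livers once diet was taken into account. Of 10937 genes tested, 1397 (12.8%) were differentially expressed (DE) at a Benjamini-Hochberg (BH)-adjusted p under 0.05 in the limma fit of strain and diet. Of these, 507 genes (4.64%) were higher in CC008/GeniUnc and 890 (8.14%) were lower, and the median difference over all genes was -0.026. Centring each array on its median changed this split to 349 higher and 1217 lower. A difference of at least 2-fold was seen for 65 higher and 78 lower genes. In 1048 of the DE genes, 390 higher and 658 lower, all 5 CC008/GeniUnc mice lay on the same side of the median of the others. CC008/GeniUnc had the highest strain mean of the 22 strains in 366 DE genes and the lowest in 602. Over all 10937 genes it had the highest in 602 and the lowest in 849. The choice of DE genes itself favours such extreme ranks.

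Because 5 mice of 1 strain stand for a single genotype, the comparison was also made with strain as a random block, where 1.42% of the genes were DE (55 higher and 100 lower), and with the 22 strain means as the units, where 14 genes (0.128%) were DE (5 higher and 9 lower). All of these were among the 1397. Leaving out HP 2 reduced the 1397 to 481 and leaving out HP 3 reduced it to 572, and without both mice 181 genes were DE, 178 of them among the 1397. Fits with fewer CC008/GeniUnc mice also have less power. The sign of the difference was the same in HP mice alone for all 1397 genes and in HS mice alone for 1364, although only 42 genes were DE in HS mice alone. The 1397 genes were called from these same mice, so the agreement in sign follows in part from the selection and is no independent check.

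In 9 genes (0.0823% of those tested) the 5 CC008/GeniUnc mice lay above, or below, every mouse of the other strains, 5 on the high side and 4 on the low side. The non-overlapping genes were *Emp2*, *Ptk2b*, *Rtp4* and *Spatc1l* on the low side and *Cyp2c69*, *Acer3*, *Ugt2b37*, *Pbld1* and *Matn2* on the high side.

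*Emp2*, which encodes an epithelial membrane protein, had the widest gap between the nearest mice, 0.51. It measured 5.05, 4.51 and 5.18 in the HP mice and 5.06 and 5.07 in the HS mice, while the other mice ranged from 5.68 to 7.70 around a median of 6.78. The difference was -1.80 (SE 0.199, adjusted p = 5.3e-12 in limma). *Ptk2b*, a tyrosine kinase of the focal adhesion kinase family, measured 4.96, 4.61 and 4.52 on HP and 5.08 and 4.53 on HS, against 5.46 to 7.91 in the others, and was 4.65-fold lower (adjusted p = 1.8e-12). Both genes were low on both diets, and both were DE with strain as a random block (adjusted p = 7.5e-08 and 5.5e-09). With the strain means as units they missed the threshold, at adjusted p = 0.072 for *Emp2* and 0.057 for *Ptk2b*.

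*Spatc1l*, a gene of the spermatogenesis and centriole associated family, measured 5.57, 5.93 and 5.67 on HP and 6.74 and 6.15 on HS, while the others lay between 6.80 and 8.58. Its difference of -1.96 (SE 0.168) was DE in all 3 models, with adjusted p = 1.5e-17, 1.4e-09 and 0.0055. A second, dimmer probe set of the gene, below the expression floor, differed by -0.29. *Rtp4*, an interferon-inducible receptor transporter protein, measured 4.97, 5.09 and 5.11 on HP and 5.09 and 5.15 on HS, and the lowest of the other mice was at 5.44. *Rtp4* was thus low in every CC008/GeniUnc mouse with an SD of 0.07, and the difference was -1.69 (SE 0.267, adjusted p = 1.2e-06).

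On the high side, *Ugt2b37*, a UDP-glucuronosyltransferase that attaches glucuronic acid to lipophilic compounds, had the largest difference of all genes that were higher. Its intensity was 8.54, 9.96 and 9.84 in the HP mice and 8.66 and 8.61 in the HS mice, while the others ranged from 1.59 to 8.45 with a median of 4.85. The 16.1-fold difference (4.01, SE 0.763, adjusted p = 7.4e-05) was 3.45 without HP 2 and HP 3 (adjusted p = 0.043). The next strain was CC032/GeniUnc with a mean of 8.05, so *Ugt2b37* was not silent elsewhere. *Cyp2c69*, a cytochrome P450 of the Cyp2c family, measured 10.84, 11.03 and 10.90 on HP and 11.13 and 11.28 on HS, above the others at 4.79 to 10.51 (7.66-fold, adjusted p = 0.00044). Members of these families have near-identical sequences, so the share of each member in the signal is uncertain.

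*Acer3*, an alkaline ceramidase of sphingolipid breakdown, measured 6.28, 6.77 and 6.78 on HP and 6.52 and 6.30 on HS, and every other mouse lay between 4.23 and 6.05. The difference of 1.43 (SE 0.147) was DE in all 3 models, with adjusted p = 3.3e-13, 2.9e-06 and 0.0056. *Pbld1*, a phenazine biosynthesis-like protein, measured 10.46, 10.06 and 10.42 on HP and 10.54 and 10.27 on HS, just above the range of the others at 8.97 to 9.99, and was also DE in all 3 (adjusted p = 2.2e-10, 0.00017 and 0.01). *Matn2*, which encodes the matrix protein matrilin, lay at 4.92 to 5.38 against 2.89 to 4.88 and was 2.02-fold higher (adjusted p = 2.4e-05).

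**Figure D1:**
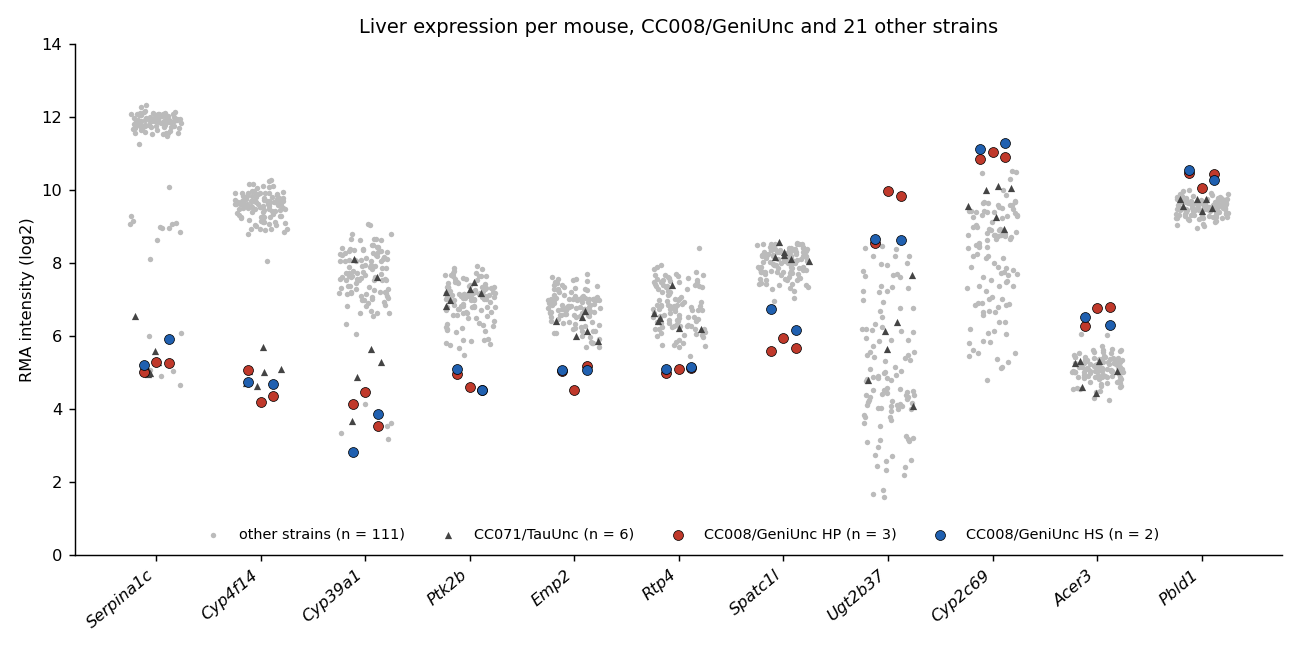
RMA intensity (log2, y axis) of 11 genes in each mouse: CC008/GeniUnc mice on HP (red, n = 3) and HS (blue, n = 2), CC071/TauUnc mice (triangles, n = 6) and mice of the other strains (grey). In *Cyp4f14* and *Serpina1c* the CC008/GeniUnc mice share the low range with CC071/TauUnc mice, while in the 8 genes from *Ptk2b* to *Pbld1* no other mouse reaches their range.

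The 3 most negative differences were in genes of low intensity in CC008/GeniUnc and in a few other strains. *Serpina1c*, which encodes a form of the protease inhibitor alpha-1-antitrypsin, measured 5.01, 5.29 and 5.26 on HP and 5.19 and 5.90 on HS, against a median of 11.84 and a highest value of 12.33 in the other mice. The difference was -5.57 (SE 0.933, adjusted p = 5.4e-06 in limma). The low range was not particular to CC008/GeniUnc, since 9 other mice, of CC011/Unc and CC071/TauUnc, were at or below its highest mouse, and the CC011/Unc mean was 5.29. The members of the Serpina1 cluster are near-identical, so a probe set of 1 member is uncertain.

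*Cyp4f14*, a cytochrome P450 that hydroxylates leukotrienes and related fatty acids, measured 5.05, 4.17 and 4.35 on HP and 4.74 and 4.67 on HS, against a median of 9.60. The difference was -4.71 (SE 0.475, adjusted p = 1.2e-13) and -4.52 without HP 2 and HP 3. Only CC071/TauUnc, with a strain mean of 5.02, had mice in the same range. *Cyp39a1*, which hydroxylates oxysterols on the way to bile acids, measured 4.13, 4.47 and 3.52 on HP and 2.83 and 3.87 on HS, against a median of 7.65 (-3.70, SE 0.517, adjusted p = 4e-08). Of the 5 values, 3 were below the expression floor of 4.08, so the size of this difference is limited by background. Mice of CC045/GeniUnc and CC071/TauUnc reached the same low range, the former with a strain mean of 3.66.

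Among the 15 genes with the largest negative differences, other P450 genes were *Cyp3a59* (-3.13, adjusted p = 2.7e-05) and *Cyp2u1*, a fatty acid hydroxylase (-2.48, adjusted p = 0.00044). The remainder held *Mme*, the peptidase neprilysin (-2.33, adjusted p = 3.5e-05), *Ctse*, the aspartic protease cathepsin E (-2.95, adjusted p = 0.046), *Adgrf1*, an adhesion G protein-coupled receptor (-2.24, adjusted p = 0.007), *Plekhb1* (-2.42, adjusted p = 1.6e-07), *Ifi27* (-2.94, adjusted p = 1.2e-06), *Trim12c*, *Gm4788*, *9930111J21Rik2* and *F830016B08Rik*. *Ctse*, *Adgrf1*, *Trim12c* and *9930111J21Rik2* were not DE with strain as a random block, at adjusted p from 0.064 to 0.15, and 15 to 31 of the other mice were at or below the highest CC008/GeniUnc mouse in these genes. In *Cyp3a59*, *Cyp2u1*, *Ctse*, *Adgrf1* and *9930111J21Rik2* every CC008/GeniUnc value was below the expression floor of 4.08, so background limits the size of their differences.

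The 15 largest positive differences held further enzymes of drug and hormone handling. *Cyp2c38* was 5.14-fold higher, at 10.74 to 11.12 in CC008/GeniUnc against a median of 8.76 (adjusted p = 0.023), and *Cyp2a22*, of the steroid-hydroxylating Cyp2a family, was 2.87-fold higher (adjusted p = 0.014). Neither was DE with strain as a random block (adjusted p = 0.087 and 0.15). *Prom1*, the membrane glycoprotein prominin known from progenitor and bile duct cells, measured 7.45, 7.65 and 6.64 on HP and 6.66 and 7.28 on HS, against a median of 4.84 (adjusted p = 0.00016, and 0.015 with the random block), and 5 mice of CC011/Unc and CC037/TauUnc overlapped it. *Cd209b*, a C-type lectin of macrophages and endothelium, was 5.88-fold higher (adjusted p = 0.0023), with CC008/GeniUnc the 19th of the 22 strains counted from the lowest. *Rarres1*, a retinoic acid-responsive gene (2.67), *A4gnt*, a glycosyltransferase of mucin glycans (2.54), *Tc2n* (2.14), the pseudogenes *Adh6-ps1* (3.19) and *Mup-ps12* (2.45), the vomeronasal receptor gene *Vmn1r53* (2.07), and the unnamed loci *4933440J02Rik* (2.42) and *Gm19522* (1.75) made up most of the rest.

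The last gene of that group, the immunoglobulin kappa segment *Igkv9-120*, was not alike in the 5 livers. It measured 6.21 in HP 2 and 6.28 in HP 3 but 4.36 to 5.05 in HP 1, HS 1 and HS 2, and without HP 2 and HP 3 its difference fell from 1.50 to 0.87 and was no longer DE (adjusted p = 0.65). *Jchain*, the joining chain of secreted immunoglobulins, was also highest in HP 2, at 6.50, and lowest in HS 2, at 4.14. Of 7 measured B and plasma cell markers only *Jchain* was DE, and their median lay between 0.38 and 0.50 in each of the 5 mice against -0.69 to 1.62 in the others.

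Interferon response genes were lower as a group. Interferons are secreted during viral infection and induce antiviral genes through a repeated GAAA element in their promoters, and healthy liver also carries a resting level of this program. Of 39 measured genes of the interferon list, 14 were lower in CC008/GeniUnc and 0 were higher, against 8.14% of all genes lower. The median difference was -0.64, compared with -0.026 over all genes, and 37 of the 39 differences were below 0.

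Early sensors and effectors moved in the same direction. *Ddx58*, the cytoplasmic RNA sensor RIG-I, measured 6.19, 6.16 and 6.48 on HP and 6.66 and 6.60 on HS, against a median of 6.98 (-0.59, SE 0.119, adjusted p = 0.0002). *Xaf1*, an interferon-induced apoptosis factor, measured 4.98, 4.73 and 4.68 on HP and 4.60 and 4.73 on HS, against 5.84 (-1.07, adjusted p = 0.0004). *Ifi27*, a mitochondrial interferon-inducible protein, measured 4.37, 4.87 and 5.17 on HP and 4.27 and 4.64 on HS, against 7.67. In *Ifi27* 5 other mice, all CC071/TauUnc, were at or below the highest CC008/GeniUnc mouse, and in *Xaf1* 7 mice of 4 strains.

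Further members are named after their values were seen, because the rule for named genes took only 4 from each list. *Isg15*, the ubiquitin-like modifier, was 2.06-fold lower (adjusted p = 0.0042), *Ifit1*, which binds viral RNA, 2.21-fold lower (adjusted p = 0.033), *Irf9*, a transcription factor of the interferon response, 1.62-fold lower (adjusted p = 0.0023), and *Bst2*, which tethers budding virus, 1.98-fold lower (adjusted p = 0.05 after rounding, below the threshold before it). Other mice overlapped all of these, from 11 mice at or below the highest CC008/GeniUnc mouse in *Isg15* to 28 in *Ifit1*.

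The GAAA element was looked for in the reference promoters of the list. The motif GAAANNGAAA was searched on both strands from 250 bases before to 50 bases after each start in the RefSeq promoter table (GRCm38.p6). It was found in 3.44% of 32851 promoters, and in 3.99% of 27025 genes. Of 27 measured interferon-list genes with a promoter in the table, 16 (59.3%) held it, including 5 of 10 that were lower in CC008/GeniUnc (50%) and 11 of 17 that were not DE (64.7%). The 150 bases before the start of 3 lower genes with a match in that stretch are printed with the motif matches in capitals, on the reference sequence and not that of CC008/GeniUnc: *Isg15* (chr4:156200819-156200968, minus strand, 3 overlapping matches), *Bst2* (chr8:71537473-71537622, minus strand, 2 overlapping matches) and *Ifit1* (chr19:34640739-34640888, plus strand, 2 matches in the reverse orientation).
Isg15: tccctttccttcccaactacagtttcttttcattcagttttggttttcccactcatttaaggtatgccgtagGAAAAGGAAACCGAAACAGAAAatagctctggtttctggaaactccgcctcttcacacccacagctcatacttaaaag
Bst2: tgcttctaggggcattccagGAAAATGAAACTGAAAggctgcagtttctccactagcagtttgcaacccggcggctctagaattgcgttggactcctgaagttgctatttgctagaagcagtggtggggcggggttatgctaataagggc
Ifit1: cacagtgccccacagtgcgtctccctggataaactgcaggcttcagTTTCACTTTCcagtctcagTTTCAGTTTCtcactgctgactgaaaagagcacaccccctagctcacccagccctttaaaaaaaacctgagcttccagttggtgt

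The list median per mouse, taken after subtracting the median of the other mice from each gene, was -0.76, -0.61 and -0.63 in the HP mice and -0.67 and -0.60 in the HS mice, so HP 2 and HP 3 did not stand apart here. CC008/GeniUnc had the lowest strain mean of the 22, -0.65, followed by CC004/TauUnc at -0.57 and CC019/TauUnc and CC035/Unc at -0.52. These neighbours were within the spread of mice, since CC004/TauUnc mice ranged from -0.68 to -0.44 and CC019/TauUnc mice from -0.84 to -0.11. At the other end, CC024/GeniUnc averaged 0.62. Without HP 2 and HP 3 the median difference of the list was -0.72 and 7 genes were DE, and with strain as a random block 5 were DE. Markers of Kupffer cells and macrophages, in which these genes are also expressed, gave 0 DE genes of 16 and a median difference of -0.09, and their per-mouse median lay between -0.14 and 0.12 in CC008/GeniUnc against -1.44 to 1.21 in the others.

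**Figure D2:**
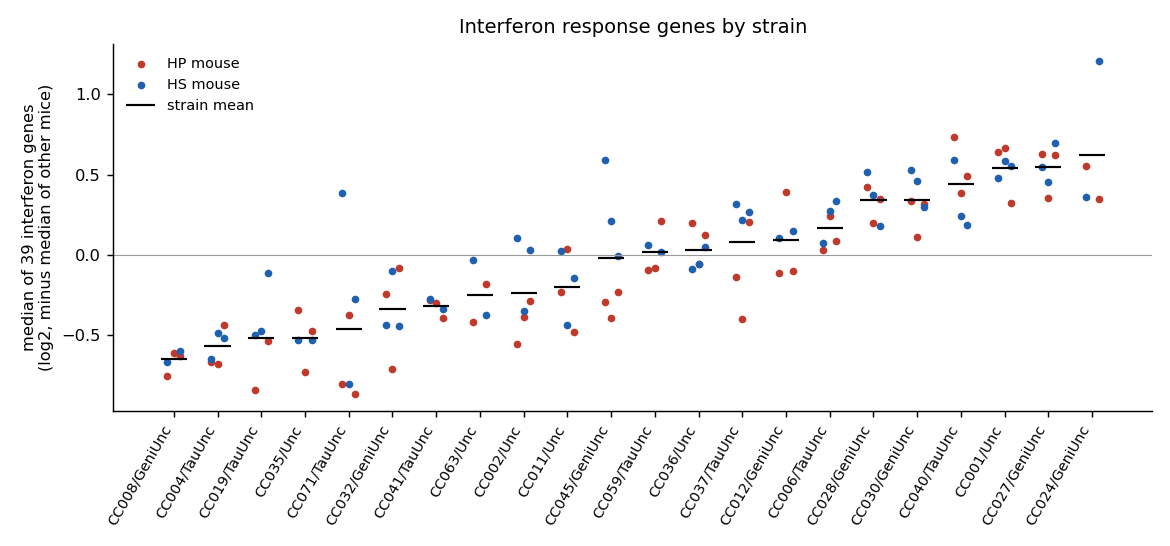
Median of 39 interferon response genes per mouse (log2, each gene minus its median in the mice outside CC008/GeniUnc, y axis) for HP mice (red) and HS mice (blue) of 22 strains, with bars at the strain means. The 5 CC008/GeniUnc mice lie between -0.76 and -0.60, and mice of CC004/TauUnc, CC019/TauUnc, CC035/Unc, CC071/TauUnc and CC032/GeniUnc reach the same range.

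Genes of antigen presentation, many of which interferon induces, were lower as well. Of 19 measured MHC genes 7 were lower and 0 higher, against 8.14% of all genes lower, with a median difference of -0.33. With strain as a random block 3 of them were DE, and without HP 2 and HP 3 also 3. *Nlrc5*, the transactivator of MHC class I genes, measured 4.69, 4.54 and 5.02 on HP and 4.66 and 3.45 on HS, against a median of 5.77 (-1.25, SE 0.221, adjusted p = 1.9e-05). *Tap1*, the peptide transporter of the class I pathway, measured 6.26, 5.98 and 5.74 on HP and 6.25 and 6.05 on HS, against 7.10 (-1.05, adjusted p = 0.00014), and only 2 mice, both CC071/TauUnc, were at or below the highest CC008/GeniUnc mouse. The class I gene *H2-Q4* (-1.57, adjusted p = 2.7e-05) and the class II gene *H2-Eb1* (-1.64, adjusted p = 0.011) were lower by similar amounts, and *H2-Eb1* was no longer DE without HP 2 and HP 3 (adjusted p = 0.19). A dimmer probe set of *H2-Q4*, below the expression floor, differed by 0.11. MHC genes are highly polymorphic and near-identical to each other, which makes their probe sets uncertain. *Nlrc5*, *H2-Q4* and *Tap1* were also DE with strain as a random block, at adjusted p from 0.0071 to 0.039.

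**Figure D3:**
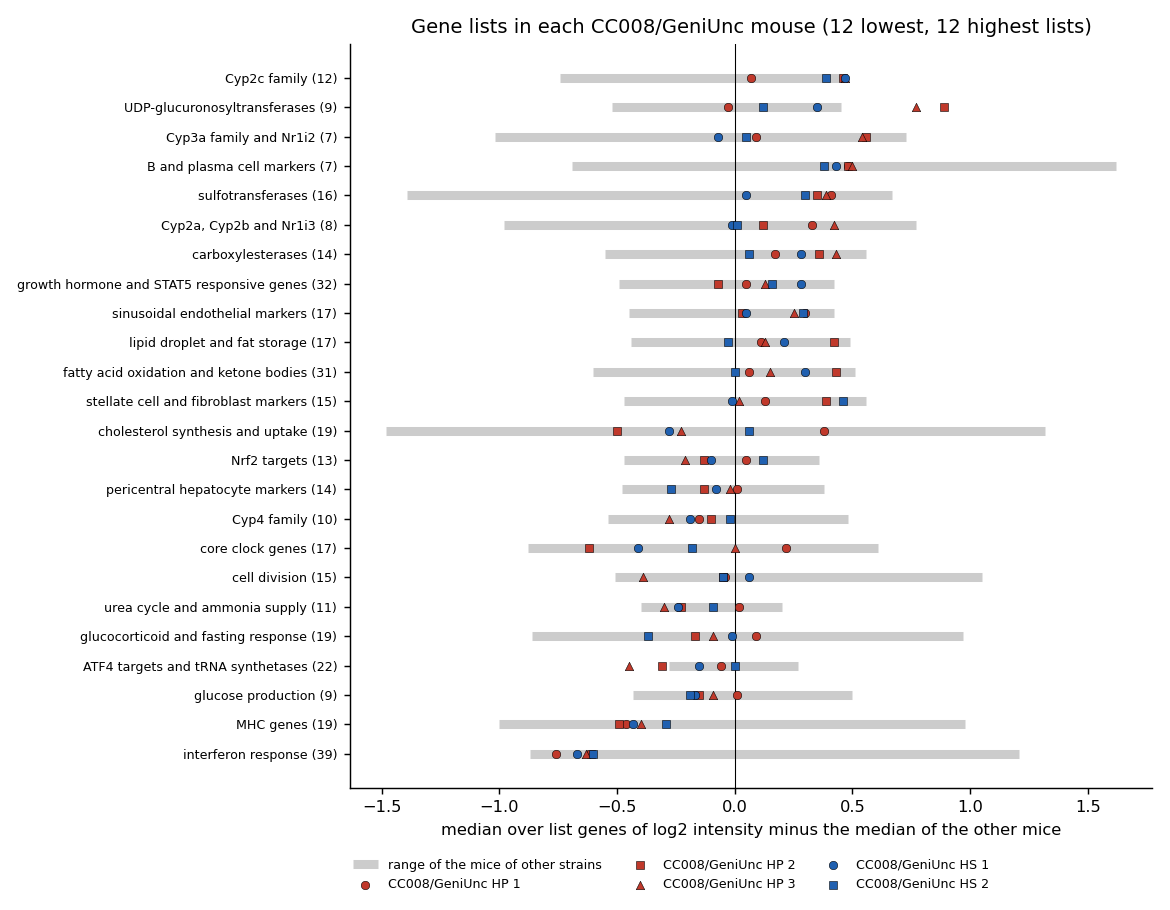
Median over the measured genes of a list (number in brackets) of the log2 intensity minus the median of the other mice, for each CC008/GeniUnc mouse (symbols) and as the range of the mice of other strains (grey bars), for the 12 lists with the lowest and the 12 with the highest median difference. The 5 mice lie between -0.76 and -0.60 for interferon response, while for UDP-glucuronosyltransferases HP 2 at 0.89 and HP 3 at 0.77 lie above HP 1, HS 1 and HS 2 at -0.03 to 0.35.

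Among the lists of oxidizing and conjugating enzymes, the Cyp2c family and the UDP-glucuronosyltransferases held the most higher genes and no lower one. The list of Cyp2a, Cyp2b and *Nr1i3* (1 higher of 8), the sulfotransferases (1 of 16) and the carboxylesterases (1 of 14) also held no lower one. The list of Cyp2d, Cyp2e, Cyp2f, Cyp2j and Cyp1a held 2 higher and 3 lower of 14. The Cyp3a family with *Nr1i2* (1 and 1 of 7) and the Cyp4 family (1 and 2 of 10) also held both. So did the glutathione S-transferases (1 and 2 of 17). In the Cyp2c family 4 of 12 measured genes were higher and 0 lower, against 4.64% of all genes higher, and the median difference was 0.48. Beside *Cyp2c69* and *Cyp2c38*, *Cyp2c68* measured 9.88 to 10.06 in the 5 mice against a median of 9.30 (adjusted p = 0.00049), and *Cyp2c40* measured 7.50 to 8.11 against 6.72 (adjusted p = 0.0018). *Cyp2c69* and *Cyp2c68* were DE with strain as a random block, the other 2 were not, and without HP 2 and HP 3 the family had 3 DE genes.

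Of 9 UDP-glucuronosyltransferases 4 were higher: *Ugt2b37* and, by less than 1.5-fold, *Ugt2b1* (1.42-fold), *Ugt2b36* (1.36-fold) and *Ugt2a3* (1.32-fold). The calls of the last 3 rested on the mice that stood apart. *Ugt2b36* measured 10.07 in HP 2 and 9.99 in HP 3 but 8.88, 9.20 and 9.06 in the other CC008/GeniUnc mice, against a median of 9.05 in the other strains. Without HP 2 and HP 3 its difference was 0.05, and *Ugt2b37* was the 1 gene of the family still DE.

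The genes of fatty acid oxidation and ketone body formation showed the same dependence. Of 31 measured, 7 were higher and 0 lower, against 4.64% of all genes higher, with a median difference of 0.18. *Acot4*, a peroxisomal acyl-CoA thioesterase, measured 7.67, 8.33 and 8.06 on HP and 7.49 and 7.19 on HS, against a median of 6.83 (1.93-fold, adjusted p = 0.00048), and *Slc22a5*, the carnitine transporter, measured 6.71, 8.23 and 7.45 on HP and 6.71 and 6.09 on HS, against 6.26 (1.65-fold, adjusted p = 0.012). *Ehhadh*, the peroxisomal bifunctional enzyme, was 1.53-fold higher (adjusted p = 0.011), and *Acot1*, a cytosolic acyl-CoA thioesterase, 2.60-fold (adjusted p = 0.028), with the highest value of both in HP 2, at 11.03 and 8.61. Without HP 2 and HP 3, or with strain as a random block, 0 of the 31 were DE.

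Amino acid enzymes included a few clear cases. *Prodh*, which starts the breakdown of proline, measured 8.55, 7.65 and 8.19 on HP and 7.65 and 7.79 on HS, against a median of 8.94 (-0.98, SE 0.157, adjusted p = 1.9e-06), and *Aldh4a1*, the next enzyme of that pathway, measured 8.31 to 8.62 against 9.12 (-0.63, SE 0.131, adjusted p = 0.00033). *Glul*, the glutamine synthetase of the pericentral hepatocytes, measured 10.77, 10.37 and 10.67 on HP and 10.94 and 10.77 on HS, against 11.32 (-0.56, adjusted p = 7.8e-05). All 3 were DE with strain as a random block and without HP 2 and HP 3. Over the whole amino acid breakdown list, 7 of 40 genes were lower and 1 higher, against 8.14% of all genes lower and 4.64% higher. The median difference of the list was -0.02. In the list of the urea cycle and ammonia supply 3 of 11 were lower, against the same 8.14%. These were *Glul*, *Glud1*, glutamate dehydrogenase (1.18-fold), and *Nags*, which makes the activator of the first urea cycle enzyme (1.19-fold). Without HP 2 and HP 3 only *Glul* of these 3 was DE.

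Of 22 targets of the stress factor ATF4 and tRNA synthetases, 6 were lower and 0 higher, against 8.14% of all genes lower, with a median difference of -0.22. *Sesn2*, a leucine sensor, measured 5.31, 3.93 and 3.49 on HP and 5.13 and 5.00 on HS, against a median of 5.32 and a lowest value of 4.29 in the others, so HP 2 and HP 3 lay below every mouse of the other strains and the other 3 within their range. The *Sesn2* values of HP 2 and HP 3 were also below the expression floor of 4.08, where background limits the intensity. *Nars*, the asparagine tRNA synthetase, measured 7.99 to 8.46 against 8.72 (-0.43, adjusted p = 0.00075). With strain as a random block, and without HP 2 and HP 3, 0 of the 22 genes were DE.

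Several other single genes had large differences within their families. *Gstt1*, a theta-class glutathione S-transferase, measured 8.33, 7.79 and 7.75 on HP and 7.29 and 7.98 on HS, against 9.69 (3.30-fold lower, adjusted p = 2.9e-09), and only CC030/GeniUnc mice overlapped it, whereas *Gstt3* of the same class was 1.93-fold higher (adjusted p = 0.0012). In the Cyp4 family, *Cyp4f14* and *Cyp4f13* (-0.46, adjusted p = 0.019, but -0.30 and 0.58 without HP 2 and HP 3) were lower and *Cyp4f17* was higher, at 6.41 to 7.08 against a median of 5.75 (adjusted p = 0.0028). *Cyp7b1*, which hydroxylates oxysterols and steroids and is known for higher expression in males, lay at 5.72 to 6.13 against a median of 7.22 (2.94-fold lower, adjusted p = 0.013, and 0.13 with strain as a random block).

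Plasma proteins went in both directions. *F9*, coagulation factor IX, measured 10.58, 11.18 and 10.96 on HP and 10.66 and 10.69 on HS, against 10.26 (1.49-fold higher, adjusted p = 6.8e-06), and *Crp*, the acute phase C-reactive protein, lay at 10.75 to 11.31 against 10.36 (1.53-fold higher, adjusted p = 3.3e-05). *Masp1*, a serine protease of the lectin pathway of complement, was 1.54-fold lower (adjusted p = 3.2e-05), and *Clu*, clusterin, 1.36-fold lower (adjusted p = 0.00025). Each of the 4 missed the threshold without HP 2 and HP 3, at adjusted p from 0.067 to 0.29. In all, 3 of 28 complement genes were higher and 4 lower, and 3 of 23 coagulation genes were higher, against 4.64% of all genes higher and 8.14% lower. With strain as a random block 3 complement genes, all lower, and 1 coagulation gene were DE, and without HP 2 and HP 3 there were 0 in both lists.

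Several of the remaining lists held few DE genes. Cholesterol synthesis and uptake had 0 DE genes of 19, glucose production 0 of 9, core clock genes 0 of 17 and cell division 0 of 15, with median differences of -0.09, -0.26, -0.14 and -0.15. Fatty acid synthesis had 1 lower gene of 21, nuclear-encoded respiratory chain subunits 2 higher of 39 and the citrate cycle 1 higher and 1 lower of 22, with medians of -0.01, -0.01 and -0.02. Bile acid synthesis and transport held 4 lower genes and 1 higher gene of 28 (median -0.03), and branched-chain amino acid breakdown 3 higher of 25 (median 0.02). For the growth hormone and STAT5 responsive genes, many of which differ between the sexes in mouse liver, 2 of 32 were higher and 2 lower, and the median was 0.24. Above the 12.8% of all genes, beside bile acid synthesis and transport, were glycolysis and fructose use (1 higher and 3 lower of 16), apolipoproteins and lipoprotein handling (1 and 3 of 24), drug and organic ion transporters (2 and 2 of 19) and flavin-containing monooxygenases and aldehyde dehydrogenases (1 and 3 of 18). In these 4 lists 0 or 1 genes were DE with strain as a random block or without HP 2 and HP 3. Serpin proteinase inhibitors (2 and 2 of 22), pericentral hepatocyte markers (0 and 2 of 14) and cholangiocyte markers (0 and 1 of 4) were above 12.8% as well. They too held 0 or 1 such DE genes.

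The hepatocyte markers showed the labelled tissue. Of 13 measured hepatocyte markers the median difference was 0.01, with 1 higher and 1 lower gene, the latter *Serpina1c*. Of 17 sinusoidal endothelial markers 6 were higher and 0 lower, against 4.64% of all genes higher. The median difference of the list was 0.22, and its per-mouse median was 0.03 to 0.30 against -0.45 to 0.42 in the others. The 6 higher genes included *Tek*, an angiopoietin receptor (1.41-fold), *Egfl7* (1.34-fold), the Fc receptor *Fcgr2b* (1.29-fold) and the lectin *Clec4g* (1.36-fold). With strain as a random block, and without HP 2 and HP 3, 0 of the 6 were DE. Of 15 stellate cell and fibroblast markers 3 were higher, against 4.64% of all genes higher. They were led by *Reln*, reelin, at 8.38 to 8.75 against a median of 8.00 (adjusted p = 0.00042). Markers of T and NK cells (6 measured), neutrophils and monocytes (4) and mesothelium, smooth muscle and gallbladder (7) had 0 DE genes each, with median differences of 0.05, 0.10 and 0.02, and 1 of 2 adipocyte markers, *Fabp4*, was 2.29-fold higher (adjusted p = 0.0063). *Fabp4* was not DE with strain as a random block (adjusted p = 0.15) or without HP 2 and HP 3. The part of cell type shares in the results was not tested.

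The DE genes were not spread evenly over the genome. On chromosome 16, 96 of 359 tested genes (26.7%) were DE, 32 higher and 64 lower, compared with 12.8% of all genes and 8.40% to 18.3% on the other chromosomes. With strain as a random block 31 genes of chromosome 16 (8.64%) were DE against 1.42% of all genes, and without HP 2 and HP 3 there were 39 (10.9%) against 1.65%. Ordered along the chromosome by RefSeq (GRCm38.p6), the first 14 blocks of 20 genes, from *Zfp263* to *Gbe1*, held 92 DE genes of 280 (32.9%), with 3 to 10 in every block, 31 higher and 61 lower. The last 79 genes, from *Robo1* to *A630089N07Rik*, held 4 (5.06%). The boundary was drawn after the values were seen, neighbouring genes share descent, and no test was made of the stretch.

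**Figure D4:**
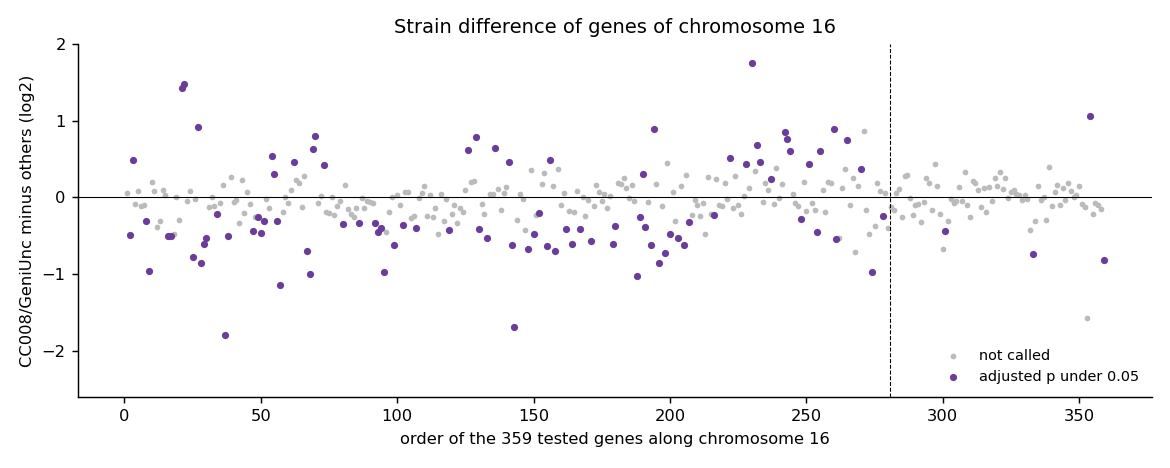
Strain difference (CC008/GeniUnc minus others, log2, y axis) of the 359 tested genes of chromosome 16 in their RefSeq order (x axis), with DE genes in purple and the others in grey. To the left of the dashed line 92 of 280 genes are DE in both directions, and to its right 4 of 79.

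Of the 14 genes that were DE with the strain means as units, 7 lay on chromosome 16, 3 on chromosome 10, 3 on chromosome 7 and 1 on chromosome 6. Beside *Spatc1l*, *Acer3* and *Pbld1*, these were named after their values were seen. *Heg1*, a receptor of endothelial junctions, measured 6.13, 5.61 and 5.77 on HP and 6.33 and 6.11 on HS, against a median of 7.02 and a lowest value of 6.17 in the others (-1.02, SE 0.11, adjusted p = 1.6e-12 over mice and 0.0056 over strain means), although a dimmer probe set below the expression floor differed by 0.18. *Lsg1*, a GTPase of ribosome assembly, measured 5.55 to 5.81 against 6.39 (-0.70), and *Spidr*, a DNA repair scaffold, 3.35 to 4.63 against 5.07 (-0.99). *Rrn3*, an initiation factor of RNA polymerase I, was higher at 6.81 to 7.01 against 6.37 (0.54). Values of at most 4 mice of other strains overlapped each of these 4 genes. The other genes of chromosome 16 were *Mzt2*, *Gspt1* and *1700119H24Rik*, and those elsewhere were *Stard5* and *Eif3f* on chromosome 7, *Sf3a2* on chromosome 10 and *Zfp638* on chromosome 6. Without HP 2 and HP 3 the difference of *Sf3a2* went from -0.55 to -0.29 and was no longer DE over the mice (adjusted p = 0.56), and that of *Eif3f* went from -0.61 to -0.39 (adjusted p = 0.021). *Emp2*, *Rtp4*, *Prodh*, *Masp1*, *Ehhadh* and *Gm19522*, described above, also lie on chromosome 16, in its first 14 blocks.

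Genes below the expression floor held a further set. When the filter on low intensities was lifted, further genes were DE that the filter had removed. Their differences are taken against values below the floor, where background limits the intensity, so the sizes are not measured folds and such genes have little room to be lower. *Ubash3a*, a regulator of T cell receptor signalling, measured 4.99, 4.79 and 4.71 on HP and 4.18 and 4.41 on HS, against a median of 1.53 and a highest value of 5.15 in the others (2.87, adjusted p = 1.1e-11). *Osbpl6*, an oxysterol-binding protein, measured 4.40 to 4.50 in all 5 mice against 1.40 to 4.22 (2.26, adjusted p = 2.1e-16), and *1700123O21Rik* on chromosome 16 measured 3.86 to 4.87 against a median of 1.78 (2.61, adjusted p = 1.9e-17). These were low signals present in CC008/GeniUnc and few other mice, since of all mice, those of CC008/GeniUnc included, only 9 exceeded the floor of 4.08 for *Ubash3a*, 6 for *Osbpl6* and 5 for *1700123O21Rik*. *Syndig1l* (2.23) and *Grm8*, a glutamate receptor (2.04), followed. The most negative differences among these ran from -0.90 for *Gm4787* to -0.67 for *Chrnb2*, with *Gsdme*, *Gas7* and *Mir542* between them.

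The second comparison asked how the CC008/GeniUnc livers differed between the diets. In the fit of 44 strain-by-diet means, 45 genes (0.411%) were DE between HP and HS in CC008/GeniUnc, 18 higher and 27 lower on HP. In the mean of the other 21 strains 2276 genes (20.8%) were DE, 1182 higher and 1094 lower, with 60 and 57 mice against 3 and 2. The HP and HS mice of CC008/GeniUnc did not overlap in 44 of the 45 genes, whereas 23.2% of all genes did not overlap. The 45 were called from these same mice, so this separation follows largely from the call and is no check. Fits with fewer mice have less power, so a lower count alone does not show that the diet difference rests on particular mice. The count fell from 45 to 16 without HP 2 and to 3 without HP 3, and rose to 962 without HP 1. It also fell to 2 without HS 1 and to 1 without HS 2.

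Genes higher on HP in CC008/GeniUnc included *Hamp2*, a hepcidin, which measured 8.29, 7.07 and 7.94 on HP and 4.93 and 5.06 on HS (2.77, SE 0.67, adjusted p = 0.037). In the other strains *Hamp2* differed by 0.32 (SE 0.138, adjusted p = 0.091) and was higher on HP in 13 of 21. *Junb*, a subunit of the transcription factor AP-1, measured 7.34, 7.24 and 7.33 on HP and 5.21 and 5.56 on HS (1.92, adjusted p = 0.044), against 0.14 in the others. Neither difference was itself shown to differ from that of the other strains (interaction adjusted p = 0.18 for both).

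Enzymes that were higher on HP in both were *Rdh16*, a retinol dehydrogenase (1.75 in CC008/GeniUnc and 0.56 in the others), *Gstt2*, a theta-class glutathione S-transferase (1.48 and 0.65), and *Oat*, ornithine aminotransferase (1.09 and 0.48). *Oat* measured 11.33, 11.41 and 11.41 on HP and 10.51 and 10.07 on HS and was higher on HP in all 21 other strains. *Mpv17l*, a peroxisomal and mitochondrial membrane protein, was likewise higher in both (1.22 and 0.40). *Tff3*, a trefoil peptide (1.70), *Hspb8*, a small heat shock protein (1.13), *Plekhb1* (1.01) and *Lyrm4*, a subunit of the iron-sulfur cluster machinery (0.93), were higher in CC008/GeniUnc, with 0.01 to 0.10 in the others. Without HP 2 and HP 3, HP 1 was the only HP mouse, so only sizes are given. The difference was then smaller for *Hspb8* (0.91), *Oat* (1.04), *Plekhb1* (0.86) and *Lyrm4* (0.25). It was larger for *Hamp2* (3.29), *Junb* (1.95), *Rdh16* (1.95), *Tff3* (1.95), *Gstt2* (1.56) and *Mpv17l* (1.40).

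Among the genes lower on HP, *Slc34a2*, a sodium-phosphate cotransporter, measured 3.99, 4.53 and 2.41 on HP and 7.20 and 6.27 on HS (-3.09, SE 0.749, adjusted p = 0.037), and in the other strains -1.01 (adjusted p = 3.3e-07). The *Slc34a2* values of HP 1 and HP 3 were below the expression floor of 4.08, so background limits the size of its difference in CC008/GeniUnc. *Slc22a7*, an organic anion transporter, measured 6.22, 6.99 and 6.12 on HP and 8.18 and 8.19 on HS (-1.74, adjusted p = 0.039), and was lower on HP in all 21 other strains (-1.01). The carboxylesterase *Ces3a* (-1.12 and -0.57), the mitochondrial fusion factor *Miga1* (-1.11 and -0.37), the E3 ligase *Trim7* (-1.74 and -0.39) and *Gm15401* (-2.03 and -1.01) were lower in both. The junction genes *Nectin1* and *Cgn*, cingulin, were lower in CC008/GeniUnc (-1.41 and -1.31) with -0.12 and -0.09 in the others, and HP 2 had the lowest value of both, at 5.52 and 4.67. *Lrp11* (-1.24) and *D630045J12Rik* (-1.24) completed the 10 largest, the latter with HP 2 at 3.76 and HP 3 at 3.72, also below the floor. With HP 1 as the only HP mouse, the difference was -0.90 for *Trim7*, -0.27 for *Nectin1* and -0.39 for *Cgn*. It was -0.83 for *Lrp11*, -0.96 for *D630045J12Rik*, -1.01 for *Ces3a* and -1.03 for *Miga1*. For *Gm15401* it was -1.67, for *Slc34a2* -2.74 and for *Slc22a7* -1.97, the last farther from 0 than with all mice.

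**Figure D5:**
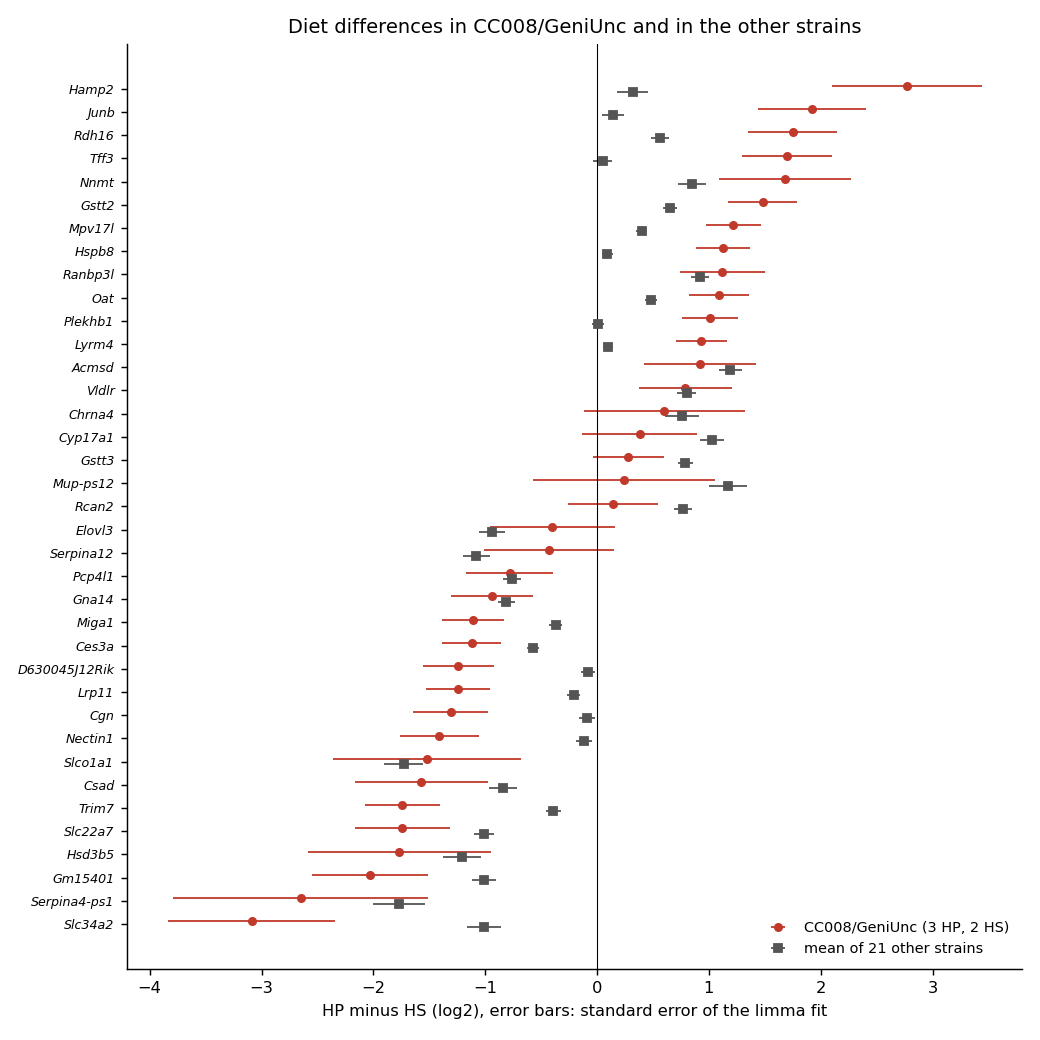
HP minus HS difference (log2, x axis) with the standard error of the limma fit for CC008/GeniUnc (red circles, 3 HP and 2 HS mice) and for the mean of the 21 other strains (grey squares), for the genes with the largest differences in either. The CC008/GeniUnc values lie farther from 0 than the others for *Hamp2* (2.77 and 0.32) and *Slc34a2* (-3.09 and -1.01), and close to them for *Vldlr* (0.79 and 0.80) and *Pcp4l1* (-0.78 and -0.76).

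Of the 45 genes, 43 differed in the same direction in the other strains, and 25 were DE there with the same sign, against 20.8% of all genes DE there. In the reverse direction, 1642 of the 2276 genes that were DE in the other strains had the same sign in CC008/GeniUnc. The share of all genes with the same sign in both is not given here, so the counts of signs have no background beside them. Over the genes higher on HP in the others, the median difference was 0.121 in CC008/GeniUnc and 0.145 in the others, and over those lower it was -0.204 and -0.172. Across all 10937 genes the differences of CC008/GeniUnc and of the others correlated at r = 0.38, as a description with no test, since genes are not independent replicates.

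Lists that moved with diet elsewhere had few calls in CC008/GeniUnc. As background for the other strains, 1182 of all 10937 genes were higher on HP there and 1094 were lower. In amino acid breakdown 23 of 40 genes were higher and 3 lower on HP in the other strains, with a median of 0.12, and in CC008/GeniUnc 0 were called and the median was 0.07. In branched-chain amino acid breakdown 13 of 25 were higher in the others (median 0.08), and in CC008/GeniUnc 2 were higher with a median of 0.22. Nuclear-encoded respiratory chain subunits, 19 of 39 higher in the others with a median of 0.09, had 0 calls and a median of 0.02. Interferon genes, 16 of 39 lower on HP in the others with a median of -0.13, had 0 calls and a median of 0.02, and Kupffer cell markers, 12 of 16 lower with a median of -0.26, had 0 and 0.08. With 0.411% of all genes called in CC008/GeniUnc, these counts of 0 are at the level of all genes.

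Among the 20 genes with the largest diet differences in the other strains, all 20 had the same sign in CC008/GeniUnc, again with no share over all genes beside this count. *Acmsd*, an enzyme of tryptophan breakdown, was 1.19 higher on HP in the others, in all 21 strains, and 0.92 higher (SE 0.503) in CC008/GeniUnc, where it measured 7.07, 6.70 and 6.72 on HP and 5.51 and 6.32 on HS. *Vldlr*, the very low density lipoprotein receptor, differed by 0.80 in the others and 0.79 in CC008/GeniUnc, and *Nnmt*, nicotinamide N-methyltransferase, by 0.85 and 1.68. *Serpina4-ps1* (-1.77 and -2.65), the organic anion transporter *Slco1a1* (-1.73 and -1.52), the steroid dehydrogenase *Hsd3b5* (-1.21 and -1.77) and *Csad*, of taurine synthesis (-0.84 and -1.57), were low on HP. Of these 20, 3 passed the test in CC008/GeniUnc, namely *Gm15401*, *Slc22a7* and *Slc34a2*. For *Rcan2* (0.77 in the others and 0.14), *Mup-ps12* (1.17 and 0.24) and *Cyp17a1* (1.03 and 0.38) the difference in CC008/GeniUnc was the smaller one, and in each the interaction did not pass (adjusted p from 0.57 to 0.69).

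The difference between the diet responses was tested directly. In the interaction contrast 2 genes (0.0183%) were DE, both with a more negative HP minus HS difference in CC008/GeniUnc, and 1248 had an unadjusted p under 0.05. *Dguok*, the mitochondrial deoxyguanosine kinase, measured 5.92, 5.57 and 5.52 on HP and 6.27 and 6.31 on HS, a difference of -0.62 against 0.02 in the others (interaction -0.64, SE 0.127, adjusted p = 0.012). *Khdrbs3*, an RNA-binding splicing regulator, measured 4.40, 3.16 and 4.03 on HP and 4.40 and 5.65 on HS, a difference of -1.16 against 0.01 (interaction -1.17, SE 0.229, adjusted p = 0.012), and here HP 1 and HS 1 had the same value. The *Khdrbs3* values of HP 2 and HP 3 were below the expression floor of 4.08, so background limits the size of this difference. The next 6 genes did not pass, at adjusted p of 0.12 to 0.15: *Ddhd1*, a phospholipase (-0.80), *Hspb8* (1.04), *Mapk8*, the kinase JNK (0.77), *Cdk5rap2*, of the centrosome (-0.83), *4930556M19Rik* (-0.84) and *Letm1*, of the inner mitochondrial membrane (-0.76). In *Mapk8* the HP mice that stood apart measured 7.49 and 7.50, while HP 1, HS 1 and HS 2 measured 6.76, 6.69 and 6.24. *Dguok* missed the threshold when HP 2, HP 3, HS 1 or HS 2 was left out, and *Khdrbs3* when HP 2 or HS 2 was (adjusted p = 0.13 and 0.41 without HP 2, 0.29 and 0.66 without HS 2). The interaction without HP 2 and HP 3 was -0.39 for *Dguok* and -0.63 for *Khdrbs3*, and neither passed.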

How the data were processed

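Liver RNA of 123 female CC mice was hybridized to Affymetrix Mouse Gene ST arrays. The authors deposited log2 intensities after RMA (background correction, quantile normalization and median polish), which the submitters' processing notes name with Affymetrix Expression Console, and removed arrays marked as outliers. Versions were not given in the sources used here. Array plate and collection week of each mouse were not used here, and no batch term was fitted. Of 41345 transcript clusters, 23521 carried 1 gene symbol, 1820 several and 16004 none, and 23328 symbols matched RefSeq (GRCm38.p6) by Entrez ID. A cluster with 1 symbol was kept where its median lay above 4.08, the average of the medians of the clusters, or where more than 12.5% of the mice did. The cluster of highest mean stood for its gene, which left 10937 genes. Models were fitted with limma 3.58.1 in R 4.3.3, with BH adjustment over all genes and a threshold of 0.05: expression on strain (CC008/GeniUnc or not) and diet over the mice, and 44 strain-by-diet means for the diet contrasts. Mice of 1 strain share a genotype, so strain as a random block (correlation 0.302) and strain means as units were run beside the first model. On simulated data with 50 genes changed per size, the strain model called 48% at a log2 change of 0.5 and 98% at 1, and the diet contrast 18% and 76%. These shares describe recovery of added changes in simulated data. They are no check on false calls among these mice, where mice of 1 strain are correlated. Named genes were the 15 largest DE differences in each direction with all 5 mice on one side of the others' median, the non-overlapping genes, up to 10 diet DE genes in each direction, the 8 smallest interaction p, up to 4 genes per list, up to 5 genes per direction DE only without the filter, and the 20 largest diet differences in the other strains. The comparison, the 60 gene lists and the rules were chosen with earlier results of these data known. Nothing in the labels says whether mice shared a cage, so p-values measure the spread between these mice. Precision is limited by the 3 and 2 mice of CC008/GeniUnc.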

Additional observations from a re-analysis of the deposited data

Results flagged for a closer look

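Of the 112 named genes, 3 had 1 CC008/GeniUnc mouse far from the other 4, by a gap over the range above 0.71; chance flags about 1 in 20 groups. *Emp2* was 4.51 in HP 2 against 5.05 to 5.18 in the other 4, *Cyp2c40* was 8.11 in HS 1 against 7.50 to 7.67, and *Cyp7b1* was 6.13 in HP 1 against 5.72 to 5.83. The diet difference of CC008/GeniUnc was itself different from that of the other strains in 2 genes, by -0.64 for *Dguok* and by -1.17 for *Khdrbs3*, both with an adjusted p of 0.012 in limma.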

How the results depend on the processing

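The strain comparison called 12.8% of the genes as reported (1397), 1.42% with strain as a random block, 25.4% with strain means fitted against the spread within strains (2780), 0.384% in HS mice alone (42), 5.29% without the expression filter (1173 of 22180), and 4.40% to 14.4% when a CC008/GeniUnc mouse was left out in turn (481 without HP 2, 572 without HP 3). Chosen after seeing the data, strain means as the unit gave 0.128%, and leaving out HP 2 and HP 3 gave 1.65%. Leaving out each of the 21 other strains gave 12.1% to 14.5%. The diet difference in CC008/GeniUnc gave 45 as reported, 2606 with array weights, 29 with arrays centred, 11 without the expression filter, 0 for the 5 mice alone (699 at an unadjusted p under 0.05), 1 to 962 leaving out each mouse and, chosen after seeing the data, 1 without HP 2 and HP 3 and 85 without CC024/GeniUnc HS 2. The interaction gave 2 as reported, 2274 with array weights, 0 to 667 leaving out each mouse (the 0 without HP 2, where 626 had an unadjusted p under 0.05) and 1 without HP 2 and HP 3. The cause of the large counts with array weights was not tested. Interferon genes lower (14 as reported) were 7 without HP 2 and HP 3, 6 in HP mice alone, 2 in HS mice alone, 5 with the random block, 0 with strain means, 26 against the spread within strains and 8 to 10 leaving out each CC008/GeniUnc mouse. MHC genes lower (7) were 3 without HP 2 and HP 3, 1 in HS mice alone, 3 with the random block, 0 with strain means, 12 against the spread within strains and 4 to 7 leaving out each mouse. Fatty acid oxidation genes higher (7) were 0 without HP 2 and HP 3, 3 in HP mice alone, 0 in HS mice alone, 3 with array weights, 4 without the filter, 0 with the random block, 0 with strain means, 13 against the spread within strains and 1 to 8 leaving out each mouse. UDP-glucuronosyltransferases higher (4) were 1 without HP 2 and HP 3, 0 in HS mice alone, 1 with the random block, 0 with strain means and 1 to 5 leaving out each mouse. The non-overlapping genes numbered 9 to 12. Of 86 genes named in the strain comparison, 47 were also DE with the random block and 45 without HP 2 and HP 3. None of the named genes changed direction. No paired analysis was possible because the labels number mice, and no number links mice of different groups.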
